A study of Mus musculus with 6 samples.

Results

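The transcripts described here are those of the 3 membrane sensors of endoplasmic reticulum (ER) stress and of the transcription factors and output genes that act behind them. They are Atf6, Ern1 (which encodes IRE1) and Eif2ak3 (PERK) among the sensors, Xbp1, Atf4, Ddit3 (CHOP) and Atf3 among the factors, and Trib3, Asns and Ppp1r15a (GADD34) among the output genes. These 10 genes were chosen by gene name, with no measured value in the rule, from the 53715 genes of the table, and each name met 1 expressed row. Earlier results of these data were known when they were chosen. The libraries came from an immortalized mouse podocyte line of wild-type genotype, 3 from cells transfected with an siRNA against Tfeb and 3 from cells transfected with a scrambled siRNA. TFEB is a transcription factor of lysosomal genes, and podocytes are the epithelial cells of the kidney's filtration barrier. Per the labels' protocols, the cells of both groups were grown at 33 °C with 10% serum and interferon-γ. They were then differentiated at 37 °C with 5% serum and type-I collagen for 10 to 14 days. Neither the siRNA's sequence, nor the time after transfection, nor any stress treatment is given in the sources used here.

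Misfolded protein in the ER activates the sensors in parallel. ATF6 moves to the Golgi, where proteases release a transcription factor that induces ER chaperones; IRE1 splices Xbp1 mRNA, whose product induces secretory and ER-associated degradation genes. PERK phosphorylates the translation factor eIF2α, which slows protein synthesis overall but favours translation of ATF4, and other kinases of eIF2α feed the same route when amino acids or haem are short (the integrated stress response). ATF4 and CHOP then induce genes of amino acid supply, redox balance and cell death. The table gives 1 RNA level per gene, so spliced Xbp1, phosphorylation, cleavage and protein were not measured.

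Tfeb itself checked the labels: it had 0.639, 0.714 and 0.822 FPKM in the Tfeb siRNA libraries, against 1.80, 2.05 and 2.27 FPKM in the scrambled siRNA libraries. This left 35.5% of the scrambled siRNA mean (log2 fold change −1.05 ± 0.13, SE, adjusted p = 0.00148). FPKM values are fragments per kilobase of gene, scaled by the authors to library depth, so levels can be compared between genes. Fold changes are Tfeb siRNA over scrambled siRNA in log2(FPKM + 0.5), where the added 0.5 makes changes of low genes look smaller. Adjusted p-values come from limma with Benjamini-Hochberg adjustment over the 12257 genes with a mean of at least 1 FPKM, and a gene is called at an adjusted p below 0.05. Reads derived from the table totalled 18062898 to 20010130 in the Tfeb siRNA libraries and 20143910 to 20610888 in the scrambled siRNA libraries.

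All 10 transcripts passed the filter on low values. Of these, 5 fell in the Tfeb siRNA cells (Atf6, Ddit3, Atf3, Trib3 and Ppp1r15a), none rose, and 5 were not called (Ern1, Eif2ak3, Xbp1, Atf4 and Asns). Over all tested genes, 33.3% were called, 16.4% as lower and 16.9% as higher. The groups did not overlap, with the Tfeb siRNA libraries below, for 6 of the 10 transcripts, and for 23.5% of all tested genes. The median log2 fold change of the 10 was −0.27, beside 0.02 over all tested genes; the 10 single values were all below 0, although those of Eif2ak3 and Asns, both near 0, turned to 0.01 without Tfeb siRNA replicate 2, and that of Asns to 0.00189 without scrambled siRNA replicate 2. The number called was 2 (Atf6 and Ddit3) without Tfeb siRNA replicate 1 or 2 or without scrambled siRNA replicate 2 or 3, 2 again with no filter on low values, and 3 with no mean-variance trend in the variance model. In bulk RNA, fewer cells expressing a gene and less RNA per cell cannot be told apart.

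**Figure D1:**
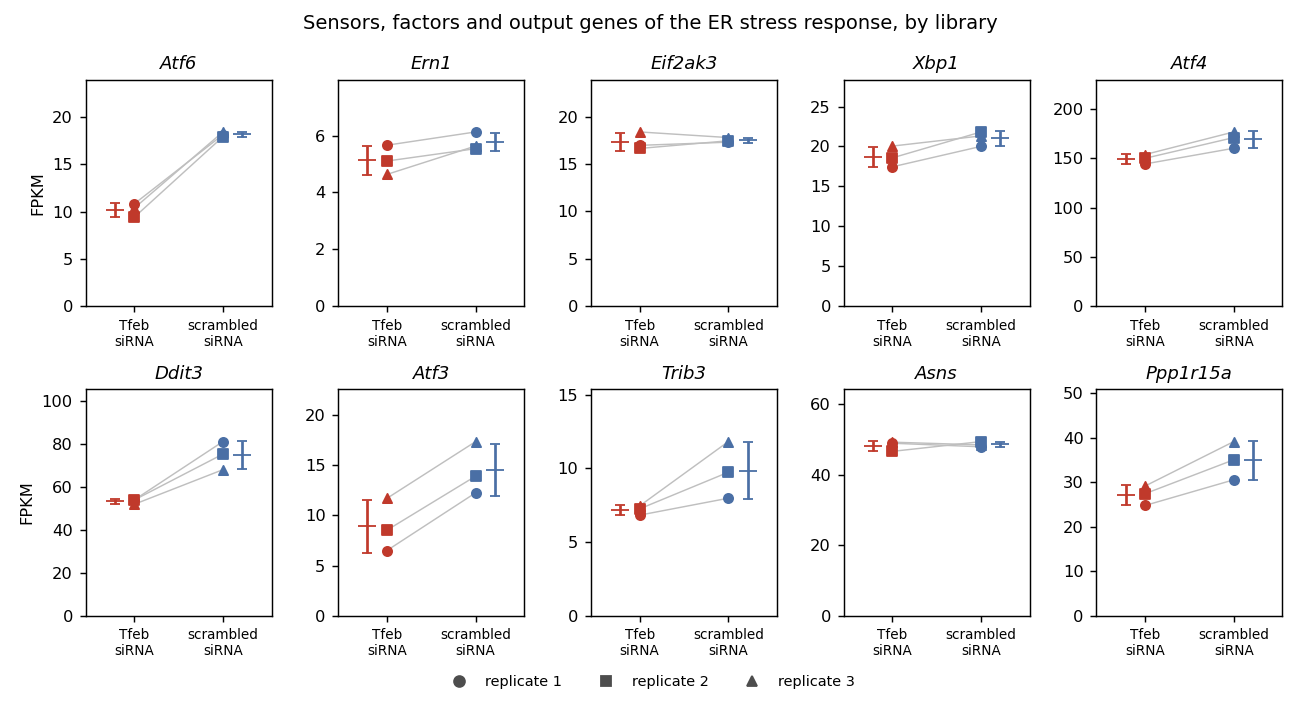
FPKM (y axis, from 0) of each of the 10 transcripts in the 3 Tfeb siRNA libraries (red, left) and the 3 scrambled siRNA libraries (blue, right) of each panel. Bars are the mean and SD of n = 3 libraries, and grey lines join libraries of the same replicate number. Atf6 was between 9.40 and 10.8 FPKM in all Tfeb siRNA libraries, against 17.9 to 18.4 FPKM in all scrambled siRNA libraries, while the groups overlapped for Ern1, Eif2ak3, Xbp1 and Asns.

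Among the sensors, only the Atf6 transcript was called. Atf6 (ENSMUSG00000026663, mm10 chromosome 1, 170704674 to 170867771, minus strand) had 10.8, 9.40 and 10.4 FPKM in Tfeb siRNA libraries 1, 2 and 3, against 18.2, 17.9 and 18.4 FPKM in scrambled siRNA libraries 1, 2 and 3. Every Tfeb siRNA library was below every scrambled siRNA library, and the distance between the groups was far larger than the spread within either. The means were 10.2 ± 0.726 FPKM and 18.2 ± 0.253 FPKM (SD, n = 3 each), a 1.78-fold lower level with Tfeb siRNA (log2 fold change −0.81 ± 0.06, SE, adjusted p = 0.000359). These values rest on 5400 reads with Tfeb siRNA and 10480 reads with scrambled siRNA, and no word of 50 bases of Atf6 was shared with another gene. An exact two-sided permutation test gave p = 0.1, the smallest that 3 libraries against 3 allow, and so it did for the other 5 transcripts whose groups did not overlap.

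Ern1, the kinase and ribonuclease that splices Xbp1, had 5.66, 5.11 and 4.64 FPKM in the Tfeb siRNA libraries, against 6.13, 5.54 and 5.64 FPKM in the scrambled siRNA libraries. The highest Tfeb siRNA library lay above the lower pair of scrambled siRNA libraries, and the mean was 89.0% of that with scrambled siRNA (log2 fold change −0.16 ± 0.08, SE, adjusted p = 0.193). Eif2ak3, the eIF2α kinase of the ER membrane, had 17.0, 16.6 and 18.4 FPKM in the Tfeb siRNA libraries, against 17.3, 17.5 and 17.8 FPKM in the scrambled siRNA libraries. Its Tfeb siRNA libraries lay on both sides of the scrambled siRNA libraries, and its log2 fold change was −0.02 ± 0.05 (SE, adjusted p = 0.848). Of the Eif2ak3 sequence, 5.71% in words of 50 bases was shared with the predicted gene Gm43292, which was at 0.25 FPKM. In the scrambled siRNA cells Atf6 stood above Eif2ak3 in every library, and in the Tfeb siRNA cells it stood below Eif2ak3 in every library. Ern1 was the lowest of the 10 in both groups.

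The 3′ untranslated region of Atf6 is 5205 bases long in its GENCODE M21 transcript, the longest of the 10, followed by that of Ern1 with 3892 bases; the median over tested genes is 1377 bases. A set of 7-base words was searched there that earlier work on these same libraries had linked to lower genes (CTACATA or TACATAA or GGCCATG or GCCATGA) or higher genes (TCGGAGA or CGGAGAA or TGTCACG or GTCACGA) with Tfeb siRNA. Only Atf6 among the 10 held any of them, GGCCATG at 1 site, TACATAA at 4 sites and, from the other set, TGTCACG at 1 site. At least 1 word of the first set was present in 33.5% of tested genes with an annotated 3′ untranslated region, and a word of the second set in 9.36%. Of genes with a word of the first set 25.7% were called lower, against 13.9% of genes without one. Of genes with a word of the second set 31.7% were called higher and 12.3% lower, against 16.5% and 18.4% of genes without one. Since the words came from these libraries, these gaps are a description. Genes with and without a word were not matched for the length of this region. A longer region, such as that of Atf6, has more places for a word. The siRNA sequence was not given, and the part of these words in the Atf6 level was not tested. The sites are shown because none of the other 9 genes holds such a word; capitals mark the word, and the number is the position of its first base after the stop codon.
Atf6, base 1738: gctaccctgtGGCCATGtccttcctgcc
Atf6, base 1897: acctcaatagTGTCACGtttgctaaggc
Atf6, base 2391: gctatgtatgTACATAAtatatatattt
Atf6, base 2665: aacgctaataTACATAAaaaataaaaac
Atf6, base 3276: ctcaaaaagtTACATAAtgtgcgtcatt
Atf6, base 3979: cattttaattTACATAAgtaatgatttt

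Atf6b and the other eIF2α kinases were higher in the Tfeb siRNA cells or not called. Atf6b, its close relative on the ER membrane, had 22.7, 24.6 and 27.0 FPKM in the Tfeb siRNA libraries, against 13.6, 19.0 and 19.1 FPKM in the scrambled siRNA libraries. All Tfeb siRNA libraries were higher, and the log2 fold change was 0.52 ± 0.14 (SE, adjusted p = 0.0246); the call was lost without Tfeb siRNA replicate 2 (0.0681) or 3 (0.0777). Atf6 was thus 1.78-fold lower while Atf6b was at 143% of its scrambled siRNA mean, and the difference between the changes was not tested. Of the other eIF2α kinases, Eif2ak2 (PKR, activated by double-stranded RNA) had 25.6, 21.6 and 20.9 FPKM in the Tfeb siRNA libraries, against 17.8, 19.1 and 15.4 FPKM in the scrambled siRNA libraries (log2 fold change 0.37, adjusted p = 0.0319). Eif2ak1 (HRI, responsive to haem) averaged 9.50 ± 0.273 FPKM with Tfeb siRNA and 8.17 ± 0.367 FPKM with scrambled siRNA (SD, n = 3 each; log2 fold change 0.21, adjusted p = 0.0289). The groups did not overlap for either kinase. Each call was lost when certain single libraries were left out: for Eif2ak2, Tfeb siRNA replicate 1 or 2 or scrambled siRNA replicate 1 or 3 (adjusted p 0.0603 to 0.0915); for Eif2ak1, Tfeb siRNA replicate 2 or 3 or scrambled siRNA replicate 1 or 3 (0.0770 to 0.0849). Eif2ak1 shared 9.22% of its sequence words with its neighbours Aimp2 (15.9 FPKM, mean of the 6 libraries) and Ankrd61 (0.479 FPKM). Eif2ak4 (GCN2, responsive to amino acid shortage) overlapped between groups at 5.61 ± 0.420 FPKM with Tfeb siRNA and 5.48 ± 0.145 FPKM with scrambled siRNA (SD, n = 3 each; adjusted p = 0.779).

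**Figure D2:**
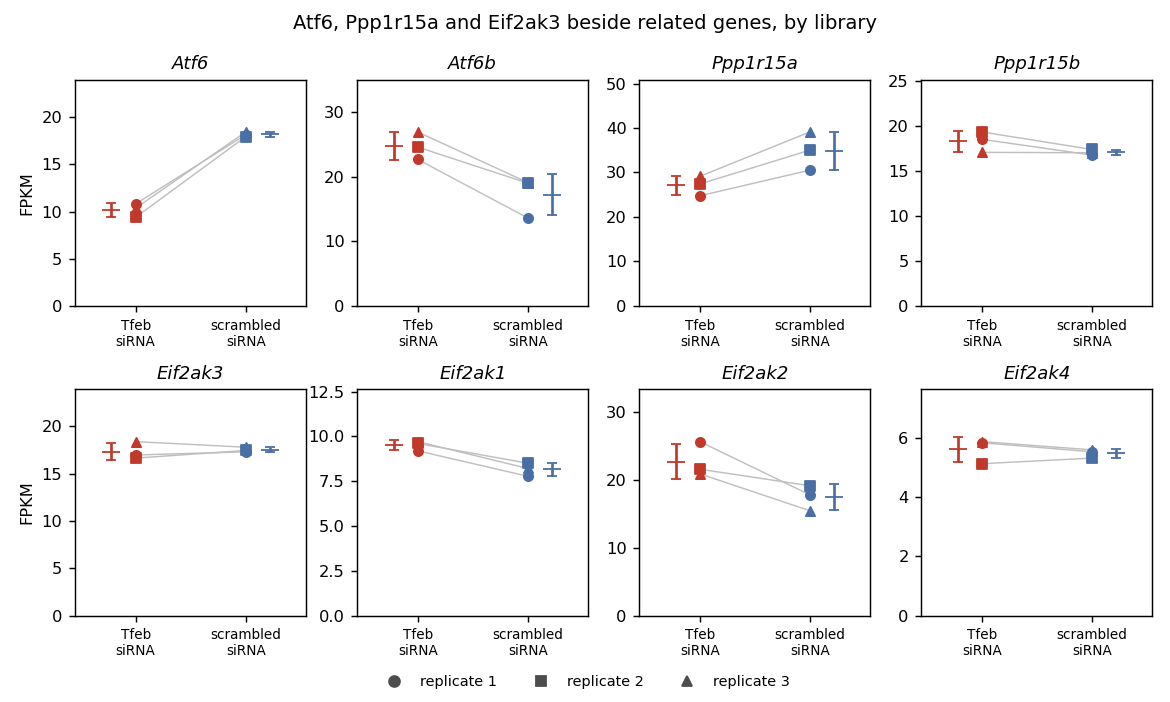
FPKM (y axis, from 0) of Atf6, Ppp1r15a and Eif2ak3 beside related genes in the 3 Tfeb siRNA libraries (red, left) and the 3 scrambled siRNA libraries (blue, right). Bars are the mean and SD of n = 3 libraries, and lines join libraries of the same replicate number. Atf6 was lower and Atf6b higher in every Tfeb siRNA library, and the kinases Eif2ak3 and Eif2ak4 overlapped between groups.

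The transcription factors behind the sensors were called in part. Xbp1 had 17.4, 18.6 and 20.0 FPKM in the Tfeb siRNA libraries, against 20.0, 21.8 and 21.3 FPKM in the scrambled siRNA libraries. Its groups met at 20.0 FPKM, and the log2 fold change of −0.17 ± 0.07 (SE) was not called (adjusted p = 0.0919). Atf4, the most abundant of the 10 in both groups, had 144, 150 and 154 FPKM in the Tfeb siRNA libraries, against 160, 171 and 177 FPKM in the scrambled siRNA libraries. All Tfeb siRNA libraries were lower, at 88.2% of the scrambled siRNA mean, and the adjusted p of 0.0506 for a log2 fold change of −0.18 ± 0.06 (SE) narrowly missed the threshold. With the replicate number as a block, both were called lower, at an adjusted p of 0.0206 for Atf4 (0.00734 to 0.165 over its alternatives) and 0.0406 for Xbp1 (0.0329 to 0.229). The block raised the number of the 10 called lower to 7, beside 19.5% of all tested genes. Leaving out scrambled siRNA replicate 1 also gave a call for Atf4 (adjusted p = 0.0373).

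Ddit3 and Atf3, factors that ATF4 induces and that act with it, both fell. Ddit3, which encodes the death-promoting factor CHOP, had 53.9, 53.9 and 51.8 FPKM in the Tfeb siRNA libraries, against 81.0, 75.2 and 68.0 FPKM in the scrambled siRNA libraries. The Tfeb siRNA libraries lay close together and below every scrambled siRNA library, at 71.2% of the mean (log2 fold change −0.48 ± 0.07 SE; adjusted p = 0.00287). The call held in each of the 16 alternatives. Ddit3 shared 4.38% of its sequence words, with a short second Ddit3 entry that was at 0 and with Mars on the opposite strand (31.4 FPKM). Atf3, an immediate stress-response factor, had 6.50, 8.53 and 11.7 FPKM in the Tfeb siRNA libraries, against 12.3, 13.9 and 17.4 FPKM in the scrambled siRNA libraries. Its groups did not overlap, although Tfeb siRNA replicate 3 came within 1 FPKM of scrambled siRNA replicate 1. The log2 differences within replicate numbers 1, 2 and 3 were −0.87, −0.67 and −0.55. The log2 fold change was −0.70 ± 0.21 (SE, adjusted p = 0.0400), lost without Tfeb siRNA replicate 1 or 2 or scrambled siRNA replicate 2 or 3 (adjusted p 0.0825 to 0.117).

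Of the output genes, Trib3 and Ppp1r15a fell and Asns was not called. Trib3, a pseudokinase induced by CHOP and ATF4, had 6.82, 7.25 and 7.45 FPKM in the Tfeb siRNA libraries, against 7.97, 9.74 and 11.8 FPKM in the scrambled siRNA libraries. The Tfeb siRNA libraries lay within a narrow range below a wider one, and the log2 fold change was −0.41 ± 0.13 (SE, adjusted p = 0.0451). Ppp1r15a, the phosphatase subunit that reverses eIF2α phosphorylation, had 24.8, 27.4 and 29.1 FPKM in the Tfeb siRNA libraries, against 30.5, 35.0 and 39.1 FPKM in the scrambled siRNA libraries. Its groups did not overlap, and the log2 fold change was −0.35 ± 0.10 (SE, adjusted p = 0.0332). Its constitutive relative Ppp1r15b overlapped between groups, at 18.3 ± 1.15 FPKM with Tfeb siRNA and 17.1 ± 0.312 FPKM with scrambled siRNA (SD, n = 3 each; adjusted p = 0.248). Asns, the asparagine synthetase that is a classic ATF4 target, had 49.0, 46.6 and 49.3 FPKM in the Tfeb siRNA libraries, against 47.9, 49.4 and 48.5 FPKM in the scrambled siRNA libraries. These ranges were nested, with a log2 fold change of −0.01 ± 0.05 (SE, adjusted p = 0.891). The Trib3 call was lost without any 1 of Tfeb siRNA replicates 1, 2 and 3 or scrambled siRNA replicates 2 and 3 (adjusted p 0.0858 to 0.113), and that of Ppp1r15a without Tfeb siRNA replicate 1 or 2 or scrambled siRNA replicate 2 or 3 (0.0794 to 0.0930).

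**Figure D3:**
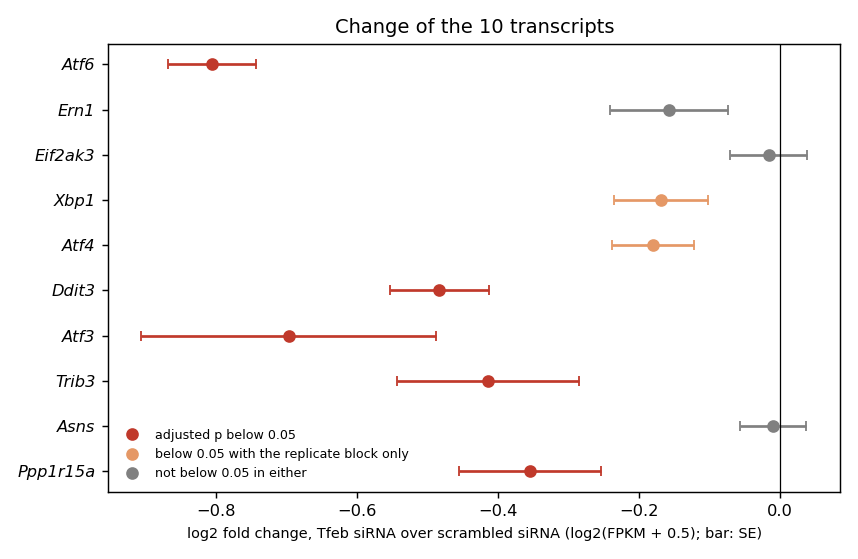
Log2 fold change of each of the 10 transcripts (x axis, Tfeb siRNA over scrambled siRNA, on log2(FPKM + 0.5)); bars are the SE of the limma fit over 3 libraries against 3. Atf6 stood furthest from 0 at −0.81, Atf3 had the widest bar at 0.21, and Eif2ak3 and Asns stood at −0.02 and −0.01. Colours mark calls at an adjusted p below 0.05, calls with the replicate block only (Xbp1 and Atf4) and no call.

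The order of the levels was the same in both groups but for Atf6 and Eif2ak3. In the Tfeb siRNA cells it ran Atf4, Ddit3, Asns, Ppp1r15a, Xbp1, Eif2ak3, Atf6, Atf3, Trib3 and Ern1, from a mean of 149 FPKM to one of 5.13 FPKM. Neighbours whose ranges met were Xbp1 and Eif2ak3, Atf6 and Atf3, and Atf3 and Trib3. In the scrambled siRNA cells it ran Atf4, Ddit3, Asns, Ppp1r15a, Xbp1, Atf6, Eif2ak3, Atf3, Trib3 and Ern1, from 169 FPKM to 5.77 FPKM, and only Eif2ak3 and Atf3 had ranges that met. Atf6 stood at the percentile 57.8 of all tested genes in the Tfeb siRNA cells and at 74.4 in the scrambled siRNA cells, whereas Asns stood at 91.2 in the Tfeb siRNA cells and at 91.3 in the scrambled siRNA cells.

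The promoters were read because Asns was not called while Trib3 and Atf3 fell, a choice made after these values were seen. RefSeq sequence (GRCm38.p6, 250 bases before to 50 bases after the start) was matched for 9 of the 10 genes; the exception was Atf6. The core of the amino acid response element that ATF4 binds, TGATGNAA on either strand, was present in 3 of the 9, those of Asns, Atf3 and Trib3, and in 3.97% of all 32851 promoters. It began 23 bases before the start of Asns, 110 bases before that of Atf3 and 15 bases after that of Trib3. The RefSeq start used for Atf3 lies inside the gene's deposited span (chromosome 1, 191170296 to 191218039, minus strand), not at its 5′ end. The cyclic AMP response element TGACGTCA, which ATF and CREB factors bind and which reads the same on both strands, was present in Ppp1r15a, 12 bases before the start, and in 1.79% of all promoters. Neither the ER stress response element bound by ATF6, the unfolded protein response element TGACGTGG nor the TFEB family's E-box TCACGTGA was found in the 9 (0.119%, 0.676% and 0.974% of all promoters). Of tested genes with TGATGNAA 23.6% of 216 were called lower, against 17.2% of 8279 without it. For TGACGTCA the shares were 13.1% of 320 and 17.5% of 8175, and for TCACGTGA 16.4% of 207 and 17.3% of 8288. For TGACGTGG they were 20.7% of 82 and 17.3% of 8413. For the ER stress response element they were 0% of 12 and 17.3% of 8483. These gaps were not tested. TGATGNAA stood in Asns, which was not called, and in Atf3 and Trib3, which fell, and its part in these levels was not tested. A match is a run of letters and not a binding site that was measured. The windows of 100 bases below run 5′ to 3′ on the gene's strand with the match in capitals.
Asns, chr6:7693210-7693309, minus strand: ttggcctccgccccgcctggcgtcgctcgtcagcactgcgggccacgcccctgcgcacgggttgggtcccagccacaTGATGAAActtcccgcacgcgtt
Atf3, chr1:191183384-191183483, minus strand: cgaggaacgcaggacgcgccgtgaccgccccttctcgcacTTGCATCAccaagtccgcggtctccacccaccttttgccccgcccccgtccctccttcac
Trib3, chr2:152344039-152344138, minus strand: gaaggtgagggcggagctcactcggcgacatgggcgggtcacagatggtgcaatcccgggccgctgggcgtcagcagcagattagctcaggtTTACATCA
Ppp1r15a, chr7:45526269-45526368, minus strand: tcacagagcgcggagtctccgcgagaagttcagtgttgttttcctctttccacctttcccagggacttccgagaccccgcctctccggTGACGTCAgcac

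The other genes of the pathway are given by lists of its steps. Beside each count stand the shares over all tested genes, 16.9% called higher and 16.4% called lower. No list was tested as a set against these shares. Of 15 tested ER-membrane transducers and their processing factors, 3 rose, 3 fell and 9 were not called (median log2 fold change −0.04). Mbtps2, the intramembrane protease that completes the release of ATF6, had 2.80, 2.69 and 2.51 FPKM in the Tfeb siRNA libraries, against 3.62, 3.78 and 3.62 FPKM in the scrambled siRNA libraries (log2 fold change −0.40, adjusted p = 0.00673). Creb3, an ER-membrane factor built like ATF6, averaged 53.4 ± 2.71 FPKM with Tfeb siRNA and 74.9 ± 4.2 FPKM with scrambled siRNA (SD, n = 3 each; log2 fold change −0.48, adjusted p = 0.00183). The groups of both stood apart, but Mbtps2 shared 28.9% and Creb3 16.0% of their sequence words with other genes. For Creb3 these were Tln1 (107 FPKM, mean of the 6 libraries) and Gba2 (2.77 FPKM). Map3k5 (ASK1), a kinase downstream of IRE1, was at 2.16 ± 0.225 FPKM with Tfeb siRNA and 1.36 ± 0.224 FPKM with scrambled siRNA (SD, n = 3 each; log2 fold change 0.52, adjusted p = 0.0202). That call was lost without Tfeb siRNA replicate 1 or 2 or scrambled siRNA replicate 1 or 3 (adjusted p 0.0544 to 0.0663), and the list held 3 calls without any 1 of Tfeb siRNA replicates 1, 2 and 3 or scrambled siRNA replicate 3.

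Of the 16 ATF6 targets and ER chaperones, 5 rose (Hspa5, Hyou1, Pdia3, Pdia4 and Pdia6), none fell and 11 were not called, with a median of 0.09. Hspa5, the chaperone BiP that holds the sensors inactive, had 298, 282 and 313 FPKM in the Tfeb siRNA libraries, against 221, 228 and 217 FPKM in the scrambled siRNA libraries. All Tfeb siRNA libraries were higher, at 134% of the scrambled siRNA mean (log2 fold change 0.42 ± 0.06, SE, adjusted p = 0.00245). Pdia4, a disulfide isomerase of the ER, likewise stood apart at 160 ± 12.2 FPKM with Tfeb siRNA and 119 ± 4.41 FPKM with scrambled siRNA (SD, n = 3 each; log2 fold change 0.41, adjusted p = 0.00481). Atf6 fell in the libraries in which these 5 genes of its target list rose. Among all tested genes, 33.3% were called and 16.9% rose, and a link between Atf6 and these genes was not tested. The count was 3 without scrambled siRNA replicate 3.

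Of 29 XBP1 and ER-associated degradation targets, 5 rose, 9 fell and 15 were not called (median −0.06). The shares over all tested genes were 16.9% higher and 16.4% lower. Os9, a lectin that hands misfolded glycoproteins to degradation, averaged 61.1 ± 3.36 FPKM with Tfeb siRNA and 36.1 ± 1.06 FPKM with scrambled siRNA (SD, n = 3 each; log2 fold change 0.75, adjusted p = 0.000353). Ssr1, a subunit of the translocon-associated complex, also rose (log2 fold change 0.48, adjusted p = 0.00134). Srpr, the receptor for the signal recognition particle, averaged 20.3 ± 0.941 FPKM with Tfeb siRNA and 37.6 ± 0.803 FPKM with scrambled siRNA (SD, n = 3 each; log2 fold change −0.87, adjusted p = 0.000197), and the signal peptidase subunit Spcs1 fell by 0.73 on the log2 scale (adjusted p = 0.000733). Srpr shared 17.8% and Spcs1 10.6% of their sequence words with other genes. Of 7 tested transcripts that IRE1 is known to cleave, none rose and 2 fell (median −0.01), a count that was 1 whichever of the 6 libraries was left out. Pmp22, a membrane protein of myelin, averaged 21.0 ± 1.01 FPKM with Tfeb siRNA and 26.6 ± 1.02 FPKM with scrambled siRNA (SD, n = 3 each; log2 fold change −0.33, adjusted p = 0.00524). Hgsnat, a lysosomal acetyltransferase, was at 40.1 ± 1.16 FPKM with Tfeb siRNA and 47.1 ± 4.11 FPKM with scrambled siRNA (SD, n = 3 each; adjusted p = 0.0437, 0.0508 to 0.110 with any 1 of the 6 libraries left out).

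Of the 16 genes of the eIF2α kinases, eIF2, its exchange factor eIF2B and the eIF2α phosphatase, 6 rose, 1 fell and 9 were not called (median 0.13). Among all tested genes, 16.9% were higher and 16.4% lower. Impact, an inhibitor of GCN2, averaged 48.0 ± 3.80 FPKM with Tfeb siRNA and 34.9 ± 3.52 FPKM with scrambled siRNA (SD, n = 3 each; log2 fold change 0.46, adjusted p = 0.00853). Ppp1cc, a catalytic subunit that GADD34 recruits, was at 16.8 ± 1.54 FPKM with Tfeb siRNA and 11.7 ± 1.92 FPKM with scrambled siRNA (SD, n = 3 each; log2 fold change 0.51, adjusted p = 0.0196), but 40.0% of its sequence words were shared with other genes and the call was lost without Tfeb siRNA replicate 2 (0.0671) or 3 (0.0569). Eif2b2, a subunit of eIF2B, was the 1 gene that fell, at 27.6 ± 1.23 FPKM with Tfeb siRNA and 34.9 ± 1.98 FPKM with scrambled siRNA (SD, n = 3 each; adjusted p = 0.00720). The list held 4 calls without Tfeb siRNA replicate 2 or without scrambled siRNA replicate 3.

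Of 13 tested partner factors of ATF4 and CHOP, 1 rose and 3 fell (median 0.08). The shares over all tested genes were 16.9% higher and 16.4% lower. With the replicate block 7 partner factors were called, against 2 without Tfeb siRNA replicate 2. Nfe2l2 (NRF2), the factor of the antioxidant response, averaged 33.7 ± 2.40 FPKM with Tfeb siRNA and 22.3 ± 0.581 FPKM with scrambled siRNA (SD, n = 3 each; log2 fold change 0.58, adjusted p = 0.00102). Cebpg, which pairs with ATF4, had 7.96, 6.93 and 7.27 FPKM in the Tfeb siRNA libraries, against 12.8, 12.5 and 11.3 FPKM in the scrambled siRNA libraries (log2 fold change −0.69, adjusted p = 0.000948). Its groups did not overlap, at 60.5% of the scrambled siRNA mean. Nupr1, a stress-induced chromatin protein, averaged 14.5 ± 1.38 FPKM with Tfeb siRNA and 19.1 ± 1.87 FPKM with scrambled siRNA (SD, n = 3 each; log2 fold change −0.39, adjusted p = 0.0182, and 0.0527 without Tfeb siRNA replicate 2).

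Of 43 tested ATF4 and CHOP targets, 4 rose, 9 fell and 30 were not called (median 0.01). Those that fell included the tRNA ligase gene Iars, at 24.9 ± 1.13 FPKM with Tfeb siRNA and 40.7 ± 0.382 FPKM with scrambled siRNA (SD, n = 3 each; log2 fold change −0.70, adjusted p = 0.000324). Iars shared 7.15% of its sequence words with another gene, Gm4849. Cth, the enzyme that makes cysteine from cystathionine, was at 4.32 ± 0.329 FPKM with Tfeb siRNA and 7.38 ± 1.19 FPKM with scrambled siRNA (SD, n = 3 each; log2 fold change −0.70, adjusted p = 0.00476). Those that rose included the neutral amino acid carrier Slc1a4, at 11.5 ± 0.224 FPKM with Tfeb siRNA and 8.61 ± 0.523 FPKM with scrambled siRNA (SD, n = 3 each; log2 fold change 0.40, adjusted p = 0.00307). Yars, another tRNA ligase gene, rose by 0.27 on the log2 scale (adjusted p = 0.0330), a call lost without any 1 of Tfeb siRNA replicates 1, 2 and 3 or scrambled siRNA replicates 1 and 3 (0.0552 to 0.104). Amino acid genes were among those that rose and among those that fell. Among all tested genes, 16.9% were higher and 16.4% lower, so calls in both directions are not particular to this list. With no filter on low values 8 of the targets were called.

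Chac1, a glutathione-degrading enzyme induced by ATF4 with CHOP and ATF3, had 10.5, 12.4 and 14.4 FPKM in the Tfeb siRNA libraries, against 14.8, 22.8 and 24.0 FPKM in the scrambled siRNA libraries. The groups were separated by a small gap between Tfeb siRNA replicate 3 and scrambled siRNA replicate 1 (log2 fold change −0.68 ± 0.19 SE; adjusted p = 0.0327). The call was lost without Tfeb siRNA replicate 1 or 2 or scrambled siRNA replicate 2 or 3 (0.0841 to 0.0985). Sesn2, an inhibitor of mTORC1 signalling, averaged 29.1 ± 1.38 FPKM with Tfeb siRNA and 34.9 ± 4.0 FPKM with scrambled siRNA (SD, n = 3 each; adjusted p = 0.0657). It was called lower with the replicate block (0.0239) and without scrambled siRNA replicate 1 (0.0174), within a range of 0.0143 to 0.174 over its alternatives. Ddit4, another mTORC1 inhibitor induced by stress, overlapped between groups at 30.9 ± 3.64 FPKM with Tfeb siRNA and 29.4 ± 1.35 FPKM with scrambled siRNA (SD, n = 3 each; adjusted p = 0.610). The list held 8 calls without scrambled siRNA replicate 3.

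**Figure D4:**
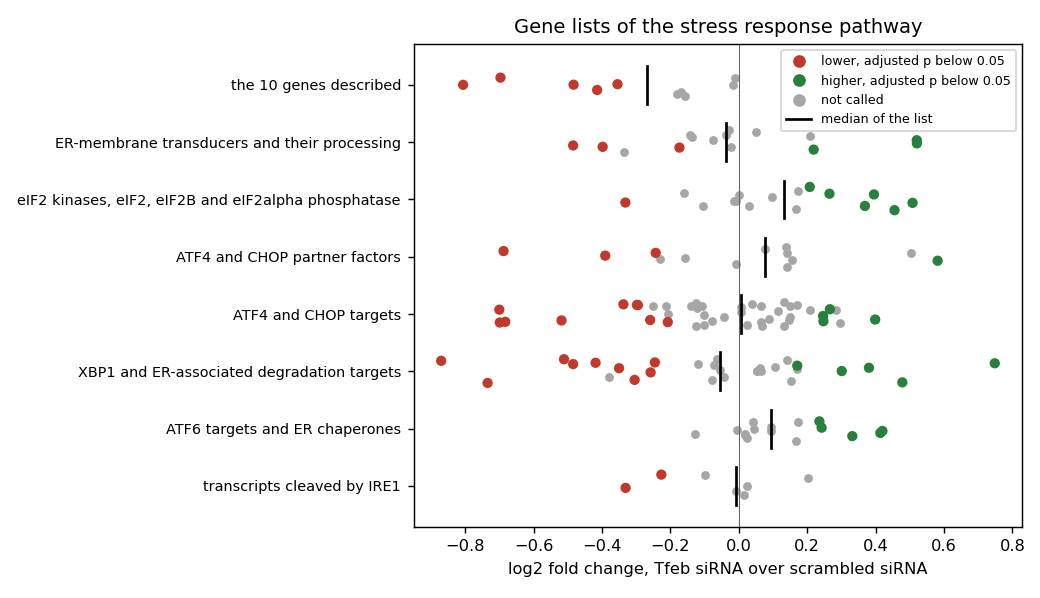
Log2 fold change (x axis, Tfeb siRNA over scrambled siRNA) of every tested gene in the 10 described and in each list of the pathway (rows); a bar marks the median, and colours mark calls at an adjusted p below 0.05. The median of the 10 described genes was −0.27 and the list medians lay between −0.06 and 0.13, with calls on both sides of 0 in 5 of the 7 lists.

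The labelled cell type was checked against markers. Of 12 podocyte markers, 6 passed the filter, and Nphs1, which encodes the slit diaphragm protein nephrin, and Wt1 were below 1 FPKM in both groups. The summed level of the list was 304 to 308 FPKM in the Tfeb siRNA libraries and 315 to 339 FPKM in the scrambled siRNA libraries. From this list Podxl rose (log2 fold change 0.82), and Synpo, an actin-binding protein of podocyte foot processes, fell (−0.64). Of tubule markers, 4 of 7 passed the filter and none was called, at summed levels of 255 to 296 FPKM with Tfeb siRNA and 246 to 310 FPKM with scrambled siRNA, while Umod was at 0. Of 6 endothelial markers none passed (1.04 to 1.22 FPKM with Tfeb siRNA and 1.11 to 1.35 FPKM with scrambled siRNA, Emcn at 0). Of mesangial and fibroblast markers, 6 of 9 passed and 1 rose, Col1a1, by 1.36 on the log2 scale (summed level 1449 to 1474 FPKM with Tfeb siRNA and 1511 to 1623 FPKM with scrambled siRNA, mostly Acta2). Of macrophage markers, 3 of 6 passed and 1 fell, Csf1r, with a log2 fold change of −0.80 (summed level 7.01 to 8.82 FPKM with Tfeb siRNA and 10.0 to 11.5 FPKM with scrambled siRNA). Csf1r shared 14.3% of its sequence words with Hmgxb3, which overlaps it on the opposite strand and was at 10.2 FPKM. The share of mitochondrial reads was 1.44% to 1.57% with Tfeb siRNA and 1.36% to 1.43% with scrambled siRNA. The part of any of these in the levels of the 10 transcripts was not tested.

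**Figure D5:**
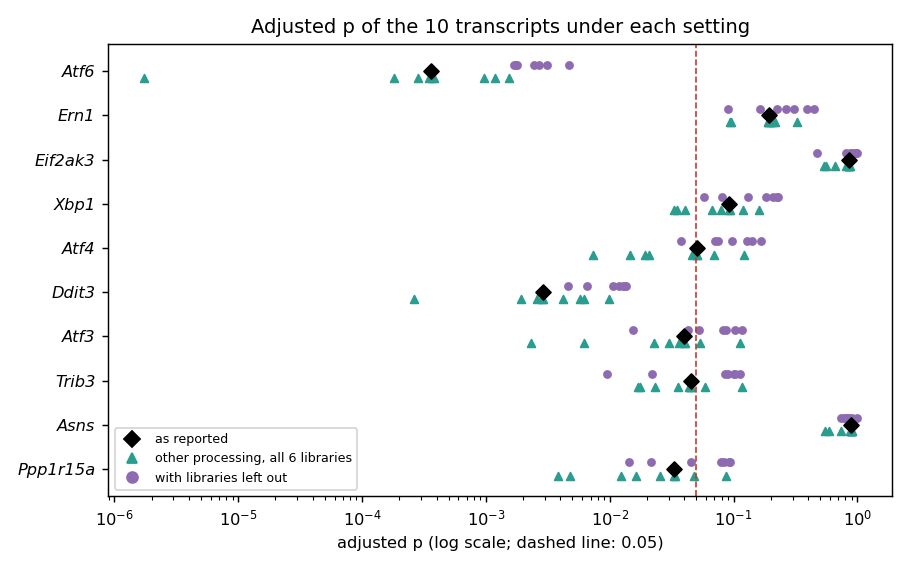
Adjusted p (x axis, log scale) of each of the 10 transcripts as reported (diamonds), under other processing of all 6 libraries (triangles) and with libraries left out (circles); the dashed line is 0.05. Atf6 and Ddit3 stayed left of the line at every point, up to 0.00471 and 0.0136, while Atf3, Trib3 and Ppp1r15a lay on both sides.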

How the data were processed

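RNA of 6 libraries was sequenced, and sample titles gave the group and replicate number of each. The authors deposited 1 table of FPKM values per gene and library with gene lengths, per the file headers; they used mm10, according to the submitters' processing notes. Aligner, read counter, strand setting and annotation release: not given in the sources used here. Multiplied by gene length, 100% of FPKM values above 0 came out as whole multiples of a library's step (tolerance 1e-06), so read numbers were derived; they cover counting error only. The authors' depth already held a size factor per library.

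The comparison used log2(FPKM + 0.5) in limma 3.58.1 (R 4.3.3), with eBayes and a mean-variance trend, two-sided, over genes with a mean of at least 1 FPKM. The script was tested on simulated data. The labels do not state separate cultures for the replicates, and the spread behind the p-values may be technical. Residuals of same-numbered libraries correlated at 0.382, 0.129 and 0.166 for numbers 1, 2 and 3. Across numbers, Tfeb siRNA replicate 2 with scrambled siRNA replicate 3 gave 0.106, and Tfeb siRNA replicate 3 with scrambled siRNA replicate 2 gave 0.0996. The remaining cross-number values ran from −0.239 to −0.201. Only number 1 thus stood apart, and a pairing by number is not established. A fit with the replicate block was run beside the unblocked one. Other alternatives were pseudocounts of 0.1 and 1, no filter, a filter at 5 FPKM, TPM, quantile normalization, no trend, limma-voom on derived reads and left-out libraries.

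The 10 genes and all lists were chosen with earlier results of these data known. The text names the 10 genes, Tfeb, and in each list the 2 called genes with the largest rise and the 2 with the largest fall, plus Atf6b, Ppp1r15b, the other eIF2α kinases, Hspa5, Chac1, Nupr1, Sesn2 and Ddit4. Other genes named in counts were chosen after their values were seen. Of tested gene IDs, 99.9% were in GENCODE M21, which gave overlaps and 3′ untranslated regions; shared sequence was counted in words of 50 bases. Single values of some cell type markers are not reported here.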

Additional observations from a re-analysis of the deposited data

How the results depend on the processing

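Atf6 and Ddit3 stayed lower and called under all 16 alternatives (adjusted p up to 0.00471 and 0.0136). The number of the 10 genes called was 2 with no filter and 3 with no mean-variance trend, 5 to 7 under the other settings with all 6 libraries, 2 to 6 with 1 library left out, and 4 without replicate 1 of both groups, a setting chosen, like limma-voom, after seeing the data. All tested genes called numbered 4080, and 2772 to 4928 under the alternatives. The replicate block called 7 of the 10, 7 partner factors and 2 macrophage markers; beyond these, of the genes whose call is given here, it changed those of Sesn2 and Bbc3. With no filter, the calls were 8 ATF4 and CHOP targets, 5 podocyte, 2 mesangial and 1 IRE1-cleaved; at 5 FPKM, 0 mesangial and 0 macrophage; with no trend, 1 IRE1-cleaved; with voom, 2 mesangial and 1 tubule; without replicate 1 of both groups, 4 of the eIF2 list and 1 IRE1-cleaved. With 1 library left out, calls were 3 to 5 ER-membrane transducers, 4 to 7 of the eIF2 list, 2 to 4 partner factors, 8 to 10 ATF4 and CHOP targets, 11 to 14 XBP1 targets, 3 to 5 ATF6 targets, 1 of the IRE1-cleaved list and 1 to 3 mesangial markers. Signs turned without Tfeb siRNA replicate 2 for Eif2ak3 (0.0119) and Asns (0.0146), without scrambled siRNA replicate 2 for Asns (0.00189), without Tfeb siRNA replicate 1 for Ddit4 (−0.0193), and for Eif2ak4 with voom (−0.00166) and without Tfeb siRNA replicate 3 (−0.00208); none of these was called. With 1 library left out, their log2 fold changes ran from −0.0580 to 0.0119 (Eif2ak3), −0.0243 to 0.0146 (Asns), −0.0193 to 0.148 (Ddit4) and −0.00208 to 0.0877 (Eif2ak4). The causes were not tested. The planned count-model tests were not run, because the deposited values are FPKM. Genes near 1 FPKM, such as Tfeb (237 reads with Tfeb siRNA and 723 with scrambled siRNA), rest on few reads.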

Other observations

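Further genes of the ATF4, CHOP and XBP1 lists were called, and they are given here as values chosen after they were seen. Of the serine synthesis enzymes, which ATF4 is known to induce, Phgdh averaged 128 ± 3.22 FPKM with Tfeb siRNA and 157 ± 6.59 FPKM with scrambled siRNA (SD, n = 3 each; log2 fold change −0.29, limma adjusted p = 0.00658). Psph, the last enzyme of that pathway, was at 7.77 ± 0.380 FPKM with Tfeb siRNA and 9.66 ± 0.289 FPKM with scrambled siRNA (SD, n = 3 each; adjusted p = 0.00863), and Psat1, between them, was not called at 50.1 ± 2.76 FPKM with Tfeb siRNA and 53.7 ± 3.08 FPKM with scrambled siRNA (SD, n = 3 each; adjusted p = 0.269). Of genes tied to growth arrest and cell death, Gadd45a had 17.1 ± 1.14 FPKM with Tfeb siRNA and 24.8 ± 1.85 FPKM with scrambled siRNA (SD, n = 3 each; log2 fold change −0.52, adjusted p = 0.00277). The death receptor Tnfrsf10b, a CHOP target, had 14.8 ± 0.790 FPKM with Tfeb siRNA and 18.8 ± 0.588 FPKM with scrambled siRNA (SD, n = 3 each; adjusted p = 0.00519). Bbc3 (PUMA), which promotes apoptosis, had 13.7 ± 3.25 FPKM with Tfeb siRNA and 11.1 ± 2.62 FPKM with scrambled siRNA (SD, n = 3 each; log2 fold change 0.28, limma adjusted p = 0.365). It was called higher with the replicate block (limma adjusted p = 0.00706) and without replicate 1 of both groups (0.0288), within a range of 0.00706 to 0.781 over its alternatives.

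Dnajb9, a BiP co-chaperone that depends on spliced XBP1, had 13.3 ± 1.17 FPKM with Tfeb siRNA and 19.1 ± 0.811 FPKM with scrambled siRNA (SD, n = 3 each; log2 fold change −0.51, adjusted p = 0.00285). Ube2j1, a ubiquitin-conjugating enzyme of ER-associated degradation, was at 26.6 ± 0.224 FPKM with Tfeb siRNA and 37.4 ± 1.20 FPKM with scrambled siRNA (SD, n = 3 each; log2 fold change −0.48, adjusted p = 0.000726). Sel1l, the adaptor of the same machinery, was higher at 24.3 ± 1.74 FPKM with Tfeb siRNA and 19.6 ± 0.307 FPKM with scrambled siRNA (SD, n = 3 each; log2 fold change 0.30, adjusted p = 0.0110).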
